A study of Rattus norvegicus with 6 samples.

Results

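Matricellular proteins and the CCN proteins are secreted regulators that bind to the extracellular matrix and to cell surface receptors without forming the main fibres of the matrix. A set of 10 such genes and close partners was examined in neonatal rat ventricular cardiomyocytes (NRVCs), namely Ccn1, Ccn2, Postn, Spp1, Tnc, Thbs1, Thbs2, Sparc, Fn1 and S100a4. They were chosen by symbol through the accession of each probe, and where a gene had several probes the one of highest mean signal stood for it. All 10 had a probe among the 16575 gene symbols on the array, and 9 had a kept probe, that is one the scanner software called well above background on every array of the controls, of the C3a group or of both, among 10390 symbols with such a probe. NRVCs are primary cells of Sprague-Dawley rats of 1 to 2 days of age, prepared from the pooled ventricles of 8 to 10 hearts, preplated, and grown on collagen-coated glass in a serum-free medium. The control group had 3 samples without added protein, and the C3a group had 3 samples exposed for 12 h to 0.5 µg/ml of recombinant C3a, the peptide released from complement factor C3. The methods describe a brief starvation in low serum before stimulation. Nothing in the records says that the samples of a group came from separate animals or cultures, so p-values measure the spread between these samples, which may be technical.

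In the heart, these genes are known for wound repair, scar formation and the response to mechanical load, and several of them are made chiefly by fibroblasts. Ccn1 and Ccn2 are early targets of the YAP-TEAD and MRTF-SRF pathways, which read the tension of the actin skeleton, and Ccn2 is also a classical target of TGF-beta. Their proteins, like periostin, osteopontin, tenascin-C and the thrombospondins, act through integrins, syndecans and other receptors. The question the comparison addresses is how the transcripts of NRVCs differ with C3a.

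The stretch before the start of transcription was looked up for the members in the RefSeq promoter table of the GRCr8 assembly, which reaches from 250 bases before to 50 bases after the start, and 8 of the 10 genes were matched (not Fn1 and Thbs2). The 250 bases before the start are shown, 5′ to 3′ on the strand of the gene, for the CCN pair, whose differences lay on opposite sides of 0, and for Spp1, the member whose groups did not overlap. The windows are chr2:237225690-237225939 for Ccn1, chr1:22624615-22624864 for Ccn2 and chr14:5619805-5620054 for Spp1, all on the minus strand. Capitals mark GGAATG, the letters of the M-CAT element bound by TEAD factors (CATTCC where it lies on the other strand), and TATAAA, the letters of a TATA box, wherever they lie in the window.
Ccn1: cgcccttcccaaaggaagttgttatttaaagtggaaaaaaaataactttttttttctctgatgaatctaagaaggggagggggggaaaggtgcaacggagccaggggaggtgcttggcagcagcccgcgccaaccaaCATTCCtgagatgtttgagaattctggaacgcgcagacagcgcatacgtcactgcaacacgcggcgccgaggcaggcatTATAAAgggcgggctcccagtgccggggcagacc
Ccn2: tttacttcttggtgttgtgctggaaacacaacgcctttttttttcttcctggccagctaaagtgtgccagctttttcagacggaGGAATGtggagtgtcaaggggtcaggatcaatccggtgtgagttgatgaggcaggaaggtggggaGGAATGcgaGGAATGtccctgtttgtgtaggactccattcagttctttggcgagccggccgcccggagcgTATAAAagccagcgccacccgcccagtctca
Spp1: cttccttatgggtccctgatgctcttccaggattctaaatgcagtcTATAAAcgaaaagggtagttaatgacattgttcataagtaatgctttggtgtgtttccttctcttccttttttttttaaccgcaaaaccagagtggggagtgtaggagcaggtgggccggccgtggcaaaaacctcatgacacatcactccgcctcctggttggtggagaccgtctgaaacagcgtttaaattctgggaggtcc

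The M-CAT letters stood 3 times in the Ccn2 window, with their first base 166, 101 and 92 bases before the start, and 1 time in that of Ccn1, 113 bases before it. They also stood in the windows of Thbs1 (47 bases before the start) and Sparc (33 bases), so that 4 of the 8 genes held them, against 14.2% of all 33469 promoter windows. TATAAA was in 6 of the 8 windows, against 14.2% of all, and lay 34 bases before the start in Ccn1, 31 bases in Ccn2 and S100a4, and 44 bases in Postn. In Spp1 and Tnc it lay much farther from the start, at 204 and 208 bases. Only the letters TATAAA were searched, so other forms of a TATA box nearer the start are not counted. The AP-1 letters TGANTCA, held by 7.33% of all windows, and the CArG box of SRF, held by 1.64%, were found in 0 of the 8. All motifs were searched on both strands, none of the marked matches overlapped another, and a match of letters is a description and not evidence of binding.

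Every sample had an Agilent array of its own, read in 1 colour. The level given for a gene is the log2 of its background-corrected signal minus the 75th percentile of all probes on the same array, which lay between 207 and 367 intensity units. Levels of different genes come from different probes and are not set against each other. Control replicate 1 had 38.6% of its probes well above background, against 53.7% to 57.3% on the other 5 arrays, and its local background had a median of 47 intensity units, where the others had 23 or 24. All 6 arrays lay on 1 slide scanned 1 time, where each group filled a side of its own, and an effect of that position cannot be told apart from one of C3a. No spot was saturated, and the small number of arrays limits the precision. As a check of the label, all 9 cardiomyocyte markers with a probe, among them the troponins Tnnt2 and Tnni3 and the myosins Myh6 and Myl2, were well above background on all 6 arrays. In bulk RNA, fewer cells of a type and less RNA per cell cannot be told apart.

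None of the members passed an adjusted p under 0.05 (limma, Benjamini-Hochberg adjustment over 23438 kept probes), where 0% of all kept probes did, and their adjusted p lay between 0.743 and 0.917. At an unadjusted p under 0.05 from limma, 0 of the 9 kept members were higher with C3a, beside 3.34% of all kept probes, and 0 were lower, beside 2.48%. With the replicate numbers as pairs, counts at that threshold were again 0 and 0 for the members, beside 7.82% of kept probes higher and 5.83% lower. The balance of higher and lower probes without pairs turned with the filter on signal. Of the 23438 kept probes, 23425 met it in the C3a group and 17519 in the controls, and 783 were higher and 581 lower. When a probe had to clear the background on all 6 arrays, 370 of 17506 were higher and 639 lower. With no filter, 359 of 45572 were higher and 676 lower. All shares of kept probes given below rest on the main filter. The 9 differences, C3a minus control, ranged from -0.25 for Spp1 to 0.19 for S100a4 on the log2 scale. Their median was -0.069, with 6 of 9 below 0, while the median over all kept probes was 0.048, with 37.7% below 0. The distance between these medians, -0.12, was -0.015 with limma's array weights, 0.0021 without control replicate 2, and 0.0058 over all 10 members and all probes without a filter on low signal. In that last setting the median of the members was -0.095, and the median of all probes moved to -0.10. The distance was wider in other settings, at -0.19 without C3a replicate 3 and -0.16 without control replicate 3. Without normalization between arrays all 9 lay below 0, at a median of -0.39, and the median of all kept probes moved with them to -0.28. That setting shifts the difference of every probe by the same amount, so signs that turn there do so through a shift common to all probes.

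**Figure D1:**
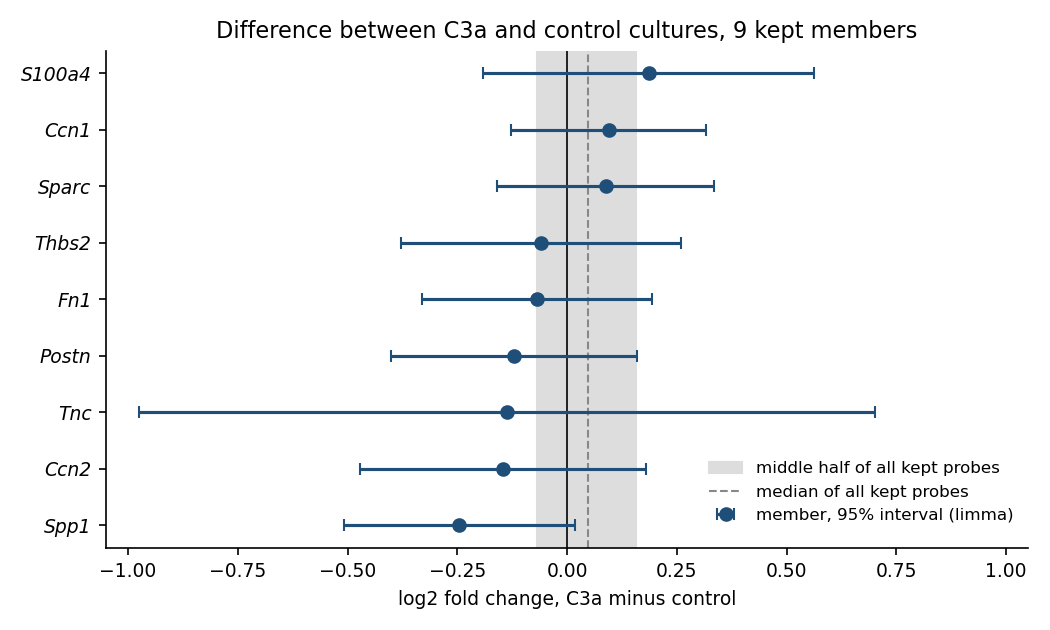
Difference between the C3a and control groups for the 9 kept members, as log2 fold change (points) with 95% confidence intervals from limma (bars, n = 3 arrays per group). The dashed line is the median of all 23438 kept probes, 0.048, and the grey band their interquartile range, from -0.068 to 0.16. All 9 intervals include 0, that of Spp1 ending at 0.017 and that of Tnc being the widest. The points of Sparc and S100a4 lie below 0, and that of Tnc above it, after quantile normalization, and all 9 lie below 0 without normalization between arrays.

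The CCN pair was measured well above background on all 6 arrays, and the 95% interval of each difference spanned values of either sign. For Ccn1, which encodes an angiogenic matrix protein that binds integrins, the controls stood at 3.24, 3.16 and 3.27 and the C3a samples at 3.33, 3.24 and 3.39. Each C3a sample lay slightly above the control of its own number, yet the groups overlapped, since control replicate 3 was above C3a replicate 2. The difference on the log2 scale was 0.095, with a 95% interval from -0.13 to 0.32 (adjusted p = 0.775 from limma). Without normalization between arrays the value was -0.23. For Ccn2, the connective tissue growth factor of fibrosis, the controls stood at 3.91, 4.21 and 3.70 and the C3a samples at 3.81, 3.81 and 3.77. The C3a values lay close together and inside the range of the controls, which spread widely. The SD was 0.25 (n = 3) in the controls and 0.021 (n = 3) with C3a, a gap that was not tested. The log2 fold change was -0.15, with an interval from -0.47 to 0.18 (adjusted p = 0.767 from limma). It depended on control replicate 2, the highest sample, without which it was -0.014, and it was 0.0089 with array weights.

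Postn encodes periostin, a protein of activated fibroblasts that helps to crosslink collagen. Control levels were -1.13, -1.27 and -1.37, and C3a levels -1.35, -1.55 and -1.25. The groups overlapped, and replicate 3 went the other way from the others. The difference on the log2 scale was -0.12, from -0.40 to 0.16 (adjusted p = 0.773 from limma), or -0.039 when C3a replicate 2 was left out.

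Spp1, which encodes osteopontin, an integrin and CD44 ligand made by macrophages and by injured muscle, was the member with the clearest separation. The controls stood at 0.44, 0.43 and 0.20, and the C3a samples at 0.16, -0.0089 and 0.18. All C3a samples lay below all controls, although C3a replicate 3 and control replicate 3 were only 0.025 apart. Spp1 was the 1 member of the 9 whose groups did not overlap in this direction, beside 4.46% of all kept probes, and 0 members lay wholly above, beside 8.04%. In processed signal, before scaling, the probe gave 310 to 495 intensity units in the controls and 234 to 286 with C3a. The log2 fold change was -0.25, or a ratio of 0.844, with an interval from -0.51 to 0.017 (adjusted p = 0.743 from limma). A two-sided exact permutation test gave p = 0.1, the smallest that 3 against 3 arrays allow. Any gene whose groups do not overlap gets this value, so it adds nothing to the lack of overlap. The value was below 0 under all 23 alternatives, from -0.57 to -0.15, of which 4 had an unadjusted p under 0.05 from limma. The highest adjusted p among them was 0.997 and the lowest 0.412. Among macrophage markers, 2 of the 7, Cd163 and Mrc1, were not well above background on any array, and 3 had a kept probe. The summed level of the list, 2.50 to 2.83 in the controls and 2.47 to 2.60 with C3a, overlapped between the groups. Signals were summed on the linear scale, so this level follows chiefly the brightest probe, Lyz2. The log2 fold changes of the 3 kept markers were -0.088 for Lyz2, -0.16 for Cd68 and 0.41 for Csf1r. The part of these markers in the Spp1 values was not tested.

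**Figure D2:**
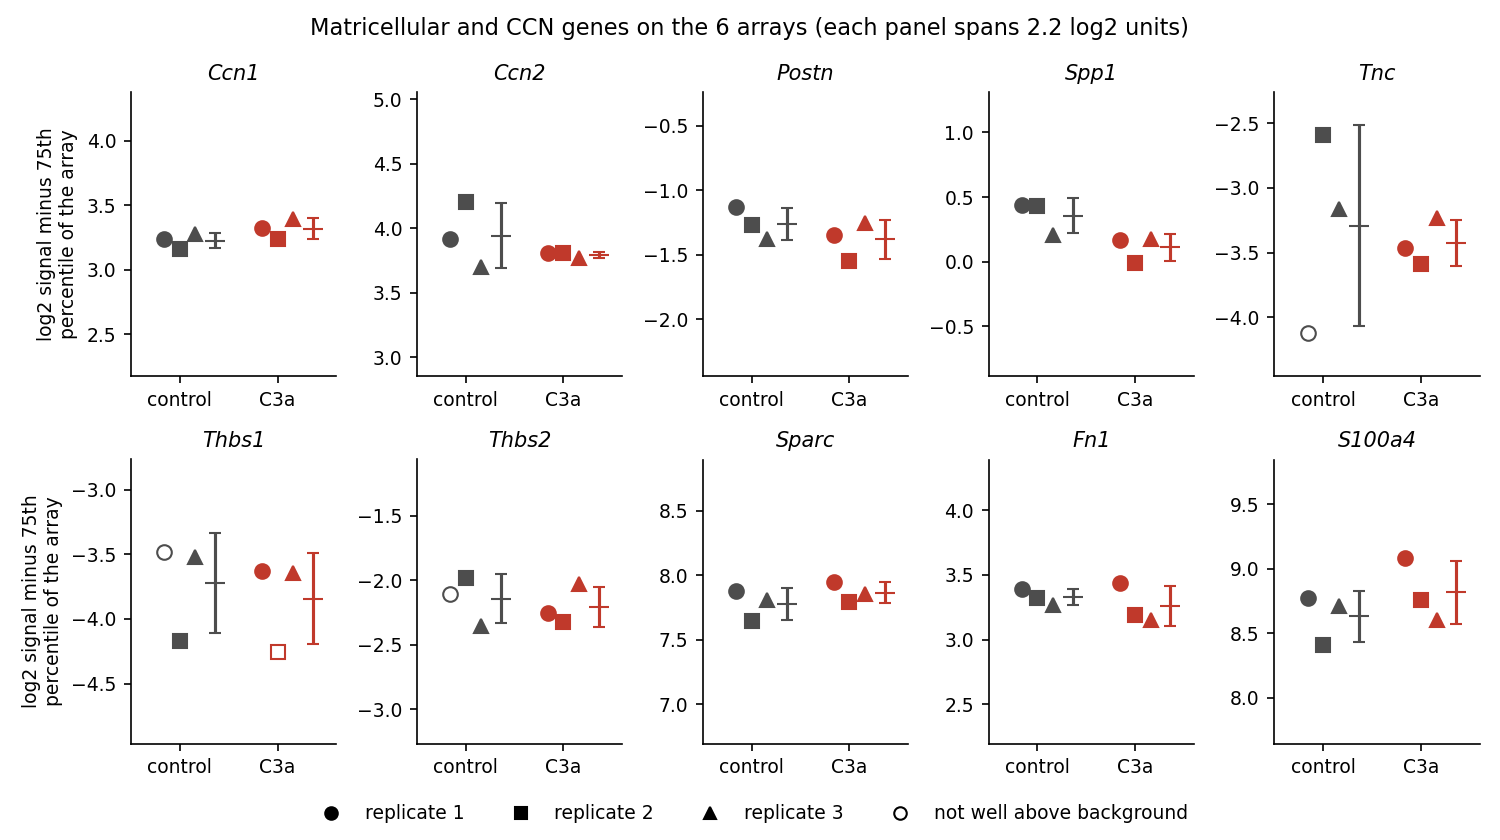
Level of each of the 10 genes on the 6 arrays, as log2 signal minus the 75th percentile of the array, with 1 panel per gene, all panels of equal height in log2 units. Markers give the replicate number, open markers a probe not well above background on that array, and bars the mean and SD of a group (n = 3). The C3a points lie below all control points for Spp1 only, and the widest spread is that of the Tnc controls, -4.13 to -2.59. The lowest of these, from replicate 1, was not well above background.

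Tnc encodes tenascin-C, which is made in the developing and the injured heart, and its probe was dim. In the controls it stood at -4.13, -2.59 and -3.16, and with C3a at -3.46, -3.58 and -3.24. The controls lay on both sides of the C3a samples. The lowest control value, from replicate 1, was not well above background and came from a processed signal of 15.6 intensity units, on the array with the raised background. The difference on the log2 scale was -0.14, with a wide interval from -0.98 to 0.70 (adjusted p = 0.917 from limma). Single arrays decided its sign. It was -0.55 without control replicate 1 (adjusted p = 0.675 from limma), 0.22 without control replicate 2, and 0.27 after quantile normalization of all 6 arrays. A dimmer Tnc probe was well above background on 1 of the 6 arrays and was not compared.

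The thrombospondins were dim as well. Thbs1 encodes an activator of latent TGF-beta and inhibitor of angiogenesis. Its probe cleared the background on 2 of 3 arrays per group, and so was not kept. Its controls stood at -3.48, -4.17 and -3.52 and its C3a samples at -3.63, -4.25 and -3.64, so that the samples of replicate number 2 were the lowest of each group. When 2 of 3 arrays were enough to keep a probe, a choice made after seeing the data, the log2 fold change was -0.12, from -0.72 to 0.47 (adjusted p = 0.897 from limma). It was 0.00033 without control replicate 1 under the same filter. Thbs2, a relative that also acts on matrix assembly and vessels, was measured on 2 of 3 controls and all 3 C3a arrays. Control levels were -2.10, -1.98 and -2.35, and C3a levels -2.26, -2.32 and -2.03, with full overlap. The log2 fold change was -0.060, from -0.38 to 0.26 (adjusted p = 0.901 from limma), and it lay just above 0, at 0.023, without control replicate 2.

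The last 3 members were bright on all arrays. Sparc encodes osteonectin, a collagen-binding protein needed for the processing of procollagen. In the controls it stood at 7.88, 7.64 and 7.81, and with C3a at 7.95, 7.79 and 7.86. Each C3a sample lay above the control of its number, but the groups overlapped, and the log2 fold change of 0.088, from -0.16 to 0.34 (adjusted p = 0.808 from limma), was -0.086 after quantile normalization. Fn1 encodes fibronectin, a ligand of several integrins on which other matrix proteins assemble. Its controls stood at 3.39, 3.33 and 3.27 and its C3a samples at 3.44, 3.19 and 3.15. C3a replicate 1 was the highest of all 6 and the other C3a samples were the lowest, and the log2 fold change was -0.069, from -0.33 to 0.19 (adjusted p = 0.854 from limma). S100a4 encodes a small calcium-binding protein used as a marker of fibroblasts, though other cells express it. Control levels were 8.77, 8.40 and 8.71, and C3a levels 9.08, 8.76 and 8.61, again overlapping. The difference on the log2 scale was 0.19, the highest of the members, from -0.19 to 0.56 (adjusted p = 0.758 from limma). It was 0.051 without C3a replicate 1, 0.073 without control replicate 2, and -0.020 after quantile normalization. Before scaling, the S100a4 probe gave 80694 to 125064 intensity units.

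Samples of the same replicate number can be set against each other. Of the 9 kept members, Ccn1 and Sparc were higher with C3a at all 3 numbers, or 2 of 9 beside 25.2% of all kept probes, and Spp1 was lower at all 3, or 1 of 9 beside 13.7%. Differences at the single numbers were 0.088, 0.077 and 0.12 for Ccn1, a narrow range. They were 0.070, 0.15 and 0.047 for Sparc, and -0.27, -0.44 and -0.025 for Spp1. For Ccn2, Postn and Thbs2 the differences were below 0 at numbers 1 and 2 and above 0 at number 3. S100a4 had the opposite order, with 0.31, 0.35 and -0.10. With the pairs as a block in limma, the adjusted p of the kept members lay at 0.414 or above, lowest for Spp1.

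**Figure D3:**
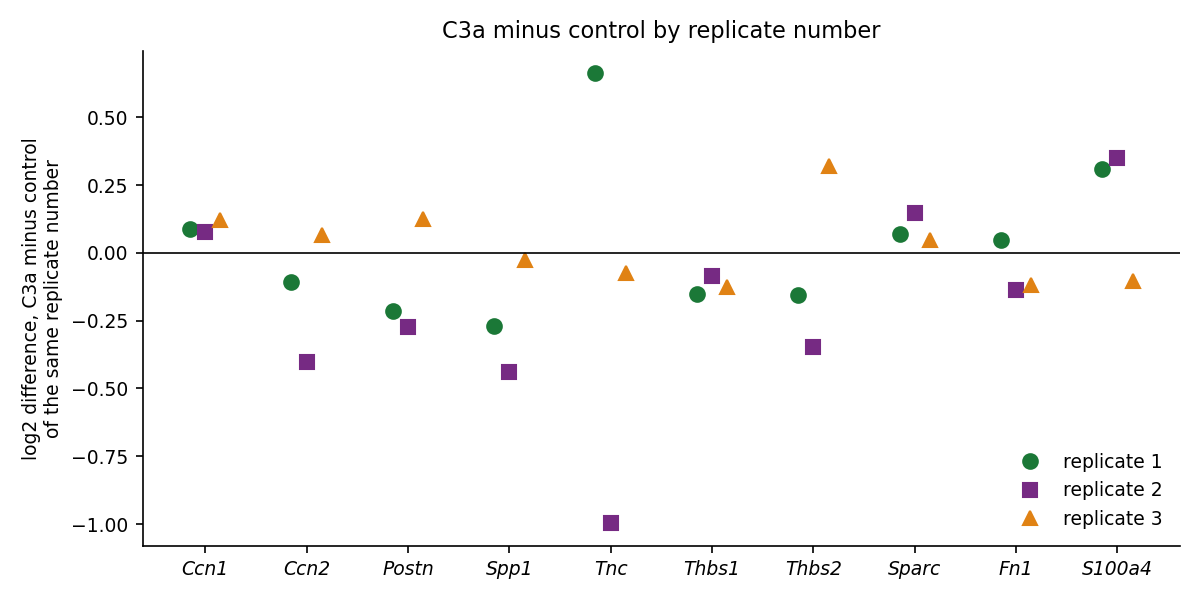
C3a minus control at each replicate number for the 10 genes, as a log2 difference (1 point per number). The 3 points of Ccn1 and Sparc lie above 0 and those of Spp1 and Thbs1 below it, while the Tnc points reach from -0.997 to 0.66. The highest Tnc point is that of number 1, whose control was not well above background. The mean differences of Ccn1 and Sparc lie below 0 without normalization between arrays.

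The members differed in how tightly their samples agreed. The SD between samples, pooled over both groups, was 0.070 for Ccn1, lower than for all but 9.10% of the kept probes, and 0.56 for Tnc, with 98.4% of the kept probes below it. The Tnc value includes control replicate 1, where the probe was not well above background, on the array with the raised background. The median over all kept probes was 0.16. Sparc (0.10), Fn1 (0.12), Spp1 (0.12) and Postn (0.14) were under that median, and Thbs2 (0.17), Ccn2 (0.18) and S100a4 (0.22) above it.

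**Figure D4:**
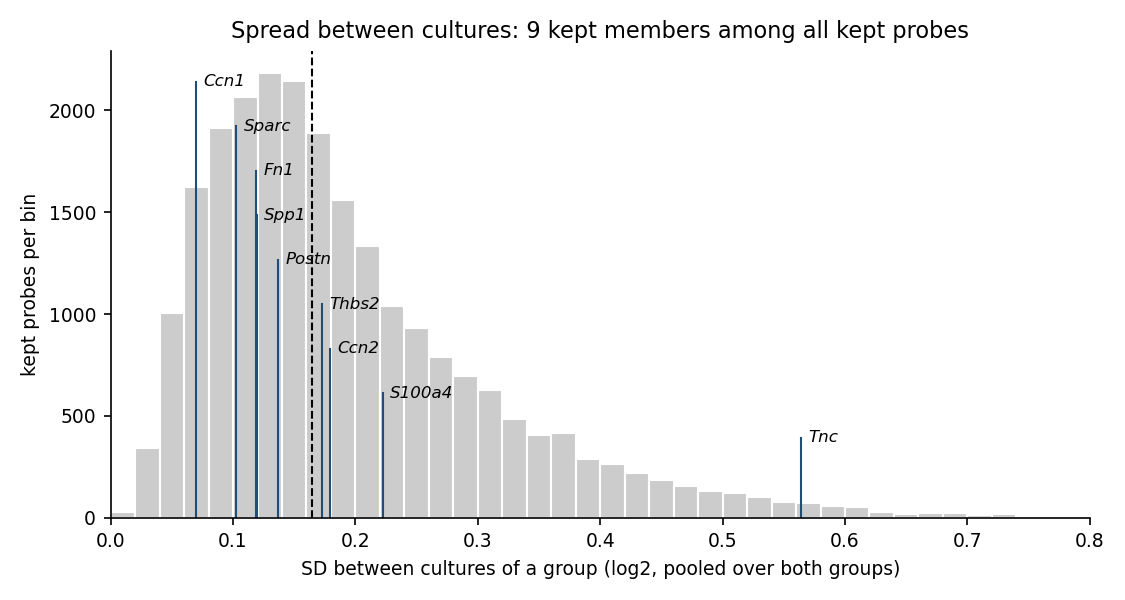
SD between samples of a group, pooled over both groups, on the log2 scale. Grey bars count the kept probes per bin of 0.02, with SDs up to 0.8 shown, the dashed line is their median of 0.16, and the blue lines mark the 9 kept members at staggered heights that carry no value. Ccn1 lies at the tight end and Tnc far to the right. The Tnc value includes control replicate 1, where its probe was not well above background.

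Control replicate 2 was the array on which most members were extreme. It was the highest of the 6 arrays for Ccn2, Tnc and Thbs2, 3 of the 9 kept members, and the lowest for another 3, Ccn1, Sparc and S100a4. With that array left out, the log2 fold change was 0.062 for Ccn1 and 0.021 for Sparc, closer to 0 than with it. The summed level of the cardiomyocyte markers was also lowest there, at 12.3, against 12.6 to 12.8 on the other arrays. With C3a the cardiomyocyte sum ran from 12.59 to 12.80, against 12.27 to 12.65 in the controls, and 8 of the 9 markers had log2 fold changes above 0, at a median of 0.21, none of them with an adjusted p under 0.743 from limma. At each of the 3 replicate numbers the sum was higher with C3a, and 7 of the 9 markers were higher at all 3, beside 25.2% of all kept probes. With the pairs as a block, 1 of the 9, Tnnc1, was higher at an unadjusted p under 0.05 from limma (adjusted p = 0.340), beside 7.82% of all kept probes. The part of these markers in the member values was not tested. Averaged over the kept members, each centred on its own mean, the arrays stood at -0.0093, 0.11 and -0.031 for the controls and 0.039, -0.12 and 0.0091 with C3a. This profile gives most weight to Tnc, whose values ranged over 1.54 log2 units. The lowest of them, on control replicate 1, was not well above background, so the profile rests in part on that reading. The genes whose profile over the 6 arrays was most like it were Gata6 (Pearson r = 0.98), Nras (0.98), Usp47 (0.98), Stx17 (0.98) and Arid2 (0.96), given as a description without a test.

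Among the other CCN genes, 3 of the 4 on the array had a kept probe. Ccn3 was the 1 that lay lower at an unadjusted p under 0.05 from limma, beside 2.48% of all kept probes. Ccn3 encodes a CCN protein that acts on cell growth and differentiation. In the controls it stood at -1.24, -1.19 and -1.33, and with C3a at -1.43, -1.76 and -1.66, without overlap. The log2 fold change was -0.36 (standard error 0.12, adjusted p = 0.743 from limma), so it did not pass the threshold. It was below 0 in all 22 alternatives, from -0.69 to -0.17. Ccn4 and Ccn5 had log2 fold changes of 0.030 and -0.068. The median over the 3 was -0.068.

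Of 22 further matricellular and matrix-bound regulators, such as other thrombospondins, SMOC proteins, fibulins and galectins, 19 had a probe and 9 a kept one. None was higher or lower at an unadjusted p under 0.05 from limma, the median log2 fold change was 0.046, and the range was -0.25 to 0.26. Thbs3, the first in that list with a kept probe, had 0.12. With the pairs as a block, 1 of them, Lgals1 (galectin-1), was higher at that threshold, at 0.26 (adjusted p = 0.331 from limma with the block). It was 0.12 without control replicate 2, and -0.063 without normalization between arrays, above the median of all kept probes there. The unadjusted p was above 0.05 when quantile normalization went with the block.

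Receptors of these proteins were represented by 27 integrin, syndecan, scavenger and LRP genes, of which 21 had a probe and 19 a kept one. None passed an unadjusted p under 0.05 from limma, and the median was -0.059. With the pairs as a block, 4 of the 19 lay lower at that threshold, beside 5.83% of all kept probes, and 0 higher, beside 7.82%. These were the integrin subunits Itga4 (-0.34), which binds fibronectin and osteopontin, and Itga7 (-0.29), which binds laminin, and the syndecans Sdc3 (-0.46) and Sdc4 (-0.22), which bind the heparin-binding domains of fibronectin and CCN proteins. Their adjusted p from limma with the block lay at 0.312 or above, and none of the 4 had non-overlapping groups. The probes of Itga4 and Sdc3 were each well above background on 5 of 6 arrays. Without control replicate 1, the array with the raised background, Sdc3 was at -0.14 and Itga4 at -0.15, and without C3a replicate 3 Itga7 was at -0.10 and Sdc4 at -0.14. Leaving out control replicate 2 moved Sdc4 to -0.15, C3a replicate 2 moved Itga4 to -0.20 and C3a replicate 3 moved Sdc3 to -0.27. For Itga4 and Sdc3 these moves were smaller than those without control replicate 1. The unadjusted p of Sdc3 was above 0.05 with quantile normalization and the block, and that of all 4 was above it in the block without pair 1. The first in the list, Itga1, a collagen-binding subunit, lay at 3.71, 3.65 and 3.65 in the controls and 3.73, 3.74 and 3.73 with C3a. Its groups did not overlap, but the log2 fold change was only 0.062 (adjusted p = 0.829 from limma), and -0.26 without normalization between arrays.

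Of 21 listed genes of the YAP-TEAD and MRTF-SRF pathways, 15 had a probe, all of them kept. The list mixed factors that drive Ccn1 and Ccn2 with genes that restrain YAP, such as Lats1 and Lats2. Yap1, Mrtfa and Mrtfb were among those without a matched probe. The median log2 fold change of the 15 was 0.039, with 0 genes at an unadjusted p under 0.05 from limma, and it does not stand for the drivers alone. Wwtr1, which encodes TAZ, lay at -0.058. With the block, Lats1, a kinase that restrains YAP, was higher at that threshold, with 0.42 (adjusted p = 0.221 from limma with the block), on a probe well above background on 5 of 6 arrays. Its value was 0.20 without control replicate 1 and also without C3a replicate 3, 0.68 without control replicate 3, and 0.089 with array weights. Of 27 genes listed as targets of the same pathways or of TGF-beta, 20 had a kept probe. The median was -0.026, with 10 above 0 and 10 below. The groups did not overlap for Asap1, at -0.20, and, in the other direction, for Tgfb2, at 0.12, which was -0.21 without normalization between arrays. Of all kept probes, 4.46% lay wholly below the controls and 8.04% wholly above. With the block, Fhl2 (-0.46), a LIM domain cofactor, was lower at that threshold and Acta2 (0.25), smooth muscle actin, was higher, the latter at -0.079 without normalization between arrays. In the block fit, 5.83% of all kept probes were lower at that threshold and 7.82% higher. With control replicate 2 left out Acta2 was at 0.11, and with C3a replicate 3 or C3a replicate 2 left out at 0.15 or 0.39, and its unadjusted p was above 0.05 when quantile normalization went with the block. Fhl2 was -0.28 without C3a replicate 3.

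S100a4 belongs to a family of 12 other genes in the list, of which 9 had a kept probe. Their median log2 fold change was 0.15, with 7 of 9 above 0, and 0 passed an unadjusted p under 0.05 from limma. S100a1, the form known from cardiomyocytes, lay at 3.97, 3.59 and 3.94 in the controls and 4.22, 4.01 and 4.10 with C3a. The groups did not overlap, and the difference on the log2 scale was 0.28 (adjusted p = 0.743 from limma). S100a6 did not overlap either, at 0.26, so that 2 of the 9 lay wholly above the controls, beside 8.04% of all kept probes. With the pairs as a block, S100a1 was the 1 of the 9 higher at an unadjusted p under 0.05 from limma, beside 7.82% of all kept probes, with an adjusted p of 0.322. Both were lowest on control replicate 2, without which they stood at 0.16 and 0.12, and both lay below 0 without normalization between arrays, at -0.046 and -0.060, where the median of all kept probes was -0.28. The inflammatory S100a8 and S100a9 were not well above background on any array.

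Genes of fibronectin and collagen assembly, 19 of 21 with a kept probe, had a median of 0.024. At an unadjusted p under 0.05 from limma, 2 of the 19 lay lower, beside 2.48% of all kept probes, and 0 higher, beside 3.34%. Fbn1 encodes fibrillin-1, the backbone of microfibrils. Control levels were -0.45, -0.45 and -0.59, and C3a levels -0.79, -0.84 and -1.12, without overlap. The log2 fold change was -0.42 (standard error 0.12, adjusted p = 0.743 from limma), and the unadjusted p stayed under 0.05 in 22 of 22 alternatives. Lum encodes lumican, a proteoglycan of collagen fibrils. In the controls it stood at -3.13, -2.72 and -3.25, and with C3a at -3.92, -3.23 and -3.57, with a small overlap. The difference on the log2 scale was -0.54 (standard error 0.21, adjusted p = 0.743 from limma), on a probe well above background on 5 of 6 arrays. It lay between -0.86 and -0.13 over 21 alternatives, with an unadjusted p under 0.05 in 9 of them, and at -0.36 without C3a replicate 1. The fibrillar collagens lay close to 0, with 0.024 for Col1a1, 0.011 for Col1a2 and -0.037 for Col3a1, values smaller than their standard errors.

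The other cell types that such cultures can hold were followed through marker lists. Signals were summed on the linear scale, so each sum follows chiefly its brightest probes, Col1a1 and Col1a2 among the fibroblast markers. The summed level of 8 fibroblast markers, members left out, was 6.51 to 6.71 in the controls and 6.51 to 6.74 with C3a. Of the 8, 1, Lum, lay lower at an unadjusted p under 0.05 from limma, beside 2.48% of all kept probes. Endothelial markers, 6 genes of which 5 had a kept probe, summed to 5.06 to 5.52 in the controls and 5.40 to 5.74 with C3a. For 6 smooth muscle and pericyte markers the sums were 1.69 to 1.90 and 1.71 to 1.92. Notch3, at 0.41 on the log2 scale (adjusted p = 0.743 from limma), was the 1 of them higher at an unadjusted p under 0.05, beside 3.34% of all kept probes. The 3 erythroid markers with a probe summed to 4.74 to 4.83 and 4.66 to 5.26. The sums overlapped between the groups in each of these lists, and their part in the values of the members was not tested.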

How the data were processed

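Total RNA of 3 control and 3 C3a samples was labelled with Cy3 and hybridised to 1-colour Agilent SurePrint G3 rat arrays. The authors deposited scanner intensities from Agilent Feature Extraction 11.5.1.1, corrected for background and not scaled between arrays, and a table of log2 values. This deposited log2 table, which differed from the scanner values used here by at most 0.0062 at the median, covers 36614 of the probes. The methods name GeneSpring, and the normalization is not given in the sources used here. Samples were grouped by title.

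Control spots and flagged outlier spots were left out, and spots of a probe were averaged on the linear scale. The log2 signal minus the 75th percentile of the array was compared with limma 3.58.1 (R 4.3.3, two-sided). A probe was called detected when 50% or more of its spots on that array were well above background, and was kept if detected on every array of either group or both. The accessions of 46.3% of probes matched the GRCr8 gene table. The array design uses another build, so no probe coordinates are given.

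The members and lists were chosen with earlier results of these data known. Named were the members, list genes at an unadjusted p under 0.05 (at most 4 per list), otherwise the first of a list, and the 5 genes of most similar profile. The other genes named from the lists, for non-overlapping groups, for the block or as markers, were chosen after their values were seen. The result of 1 gene in these lists is not reported here.

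Arrays of the same replicate number deviated together, with correlations of deviations from the group mean of 0.28, 0.32 and 0.31, against -0.26 to -0.093 for different numbers. Deviations from a group mean cancel within the group, so positive values at the same number push the others below them, and these are no separate contrast. The number is also the position along the slide. Intervals are 95% intervals. Alternatives were other scalings, filters, background correction, weights, the block, the deposited table, the methods' test and single arrays left out. Figures were drawn with matplotlib 3.10.9.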

Additional observations from a re-analysis of the deposited data

How the results depend on the processing

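No member passed an adjusted p under 0.05 from limma in any of the settings run. The filter on 2 of 3 arrays, that filter without control replicate 1, and the replicate block without pair 1 were chosen after seeing the data. Normexp was run on the median spot signal, since the scanner output held the median and not the mean. Over all kept probes, 0 passed the adjusted threshold, against 4 without normalization between arrays and 520 with the replicate block without pair 1, a fit with 1 residual degree of freedom. The 783 probes higher at an unadjusted p under 0.05 became 1832 with the replicate block, 41 without normalization, 359 with dim probes left in, 370 over the probes detected on all 6 arrays, 1636 with quantile normalization and the block, 1360 with the block without pair 1, and 441 to 1263 when single arrays were left out. The 581 lower became 2558 without normalization, 268 with the median in place of the 75th percentile, 351 with normexp, 356 in the methods' test, 1366 with the block, 1381 with quantile normalization and the block, 1205 with the block without pair 1, and 268 to 876 when single arrays were left out. Members lower at that threshold were 0, and 1 without normalization, with a variance trend and with the filter on all 6 arrays (Spp1 in each), 1 with the filter on 2 of 3 arrays without control replicate 1 and with the block without pair 1 (Tnc in both), and 0 to 1 when single arrays were left out (Tnc without control replicate 1, Spp1 without control replicate 3). The replicate block changed no call of a member. Leaving out normalization shifts every probe alike, with the median of all kept probes at -0.28 against 0.048, and with that shift the sign of the log2 fold change turned for Ccn1 (-0.23), Sparc (-0.24), S100a4 (-0.14), Thbs3 (-0.20), Lgals1 (-0.063), Itga1 (-0.26), Tgfb2 (-0.21), Acta2 (-0.079), S100a1 (-0.046) and S100a6 (-0.060). It turned after quantile normalization, with and without the replicate block, for Tnc (0.27), Sparc (-0.086) and S100a4 (-0.020), with array weights for Ccn2 (0.0089) and Thbs2 (0.024), and with normexp for Thbs2 (0.020). Under the filter on 2 of 3 arrays without control replicate 1 it turned for Thbs1 (0.00033) and Wwtr1 (0.0028). With single arrays left out, Tnc ranged from -0.55 to 0.22, Thbs2 from -0.16 to 0.023 and Wwtr1 from -0.10 to 0.011. The cause was not tested. The mean of all kept probes of a gene changed nothing, since each member had 1 kept probe. Dim probes limit what can be said of Tnc, Thbs1 and Thbs2. Being well above background throughout a group was met by 17519 probes in the controls and 23425 with C3a. Lower probes numbered 639 with the filter on all 6 arrays and 676 with dim probes left in, more than the higher ones in both settings.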
